A study of Mus musculus with 21 samples.

Results

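Interferon-stimulated genes, the effectors and regulators that cells switch on after sensing interferon, were followed in mouse liver across 6 groups defined by genotype and day after surgery. The list held 44 genes, given by symbol and chosen with earlier results of these data known. Of these, 38 had a probe set of their own on the array, among 12393 genes with such a probe set, and 36 passed a filter on low values, among 7320 genes tested. Isg15 and Tgtp1 shared their probe set with another gene and are given no value, Ddx58, Oas1g, Xaf1 and Ifi44 matched no probe set, and Oas2 and Sp100 were measured but fell below the filter. Where a gene had several probe sets, the one with the highest mean stood for it. Values are GCRMA log2 intensities, so a difference of 1 is a doubling, and a level at or under 4 lies near the floor of the scale.

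The knockout group (KO) carried Mdr2-/-, which removes the Abcb4 transporter that moves phospholipid into bile, and was of strain FVB129P2. Controls were labelled only as control, of strain FVB129P2/FVBNJ, so that genotype and strain background cannot be told apart. All were males of 9 months that underwent 30% partial hepatectomy. The lobe removed at surgery was the day 0 sample and the regrowing remnant was sampled on day 2 or day 6, so that every later liver, KO or control, had been operated on. There were 6 KO livers on day 0 and 3 livers in each of the other 5 groups, named here by mouse number. KO mice 250, 254 and 258 were sampled on days 0 and 2, KO mice 312, 332 and 337 on days 0 and 6, control mice 263 and 265 on days 0 and 2, and control mouse 303 on days 0 and 6. The other controls, 264 on day 2 and 392 and 393 on day 6, had no day 0 sample here.

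Interferons of types I and III are made by cells that detect foreign or misplaced nucleic acid, and type II interferon by T and NK cells. Their receptors signal through JAK kinases to STAT factors, which bind DNA at an interferon-stimulated response element (ISRE), together with IRF9, or at a gamma-activated site (GAS). The genes switched on include sensors such as Ifih1 and Dhx58, oligoadenylate synthetases that activate RNA decay, IFIT proteins that bind viral RNA, GTPases of the GBP and IRG families that attack vacuoles holding microbes, and Usp18, which removes ISG15 from proteins and dampens the type I receptor. Irf7 and Stat2 are themselves induced, which amplifies the response. In liver, hepatocytes as well as resident macrophages respond to interferon.

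In the 9 controls Abcb4 read 9.23 to 10.33, above its 7.25 to 8.96 in all 12 KO livers, although a probe set outside the disrupted part would still report a transcript. Array medians were 3.8 to 4.1. The log2 difference between 3' and 5' Gapdh probe sets, a sign of RNA degradation, was above 1 on 3 arrays (control day 2 265 at 9.5, KO day 0 337 at 2.03 and control day 2 263 at 1.58) and on no day 6 array. Hepatocyte markers were high on all arrays and their mean, centred per gene, ranged only from -0.23 to 0.19. In whole liver, a change in the number of cells of a type and a change in RNA per cell cannot be told apart.

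Promoter stretches of members with a match to 1 of the response elements are shown, because interferon signalling is known to act on such genes through these elements. They come from RefSeq on GRCm38.p6, run 5′ to 3′ on the gene's strand, and lie upstream of a start site of the gene. For Ifit3, Gbp3 and Oas1a that start site lies inside the annotated span of the gene. All of the Ifit3 stretch and part of the Gbp3 and Oas1a stretches lie within that span. Capitals mark GAAANNGAAA on either strand (ISRE), with overlapping matches joined, and for Irf1 they mark TTCNNNGAA (GAS).
Ifit1, chr19:34640760-34640838, plus strand: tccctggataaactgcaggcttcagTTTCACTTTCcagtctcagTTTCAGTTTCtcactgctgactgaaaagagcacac
Ifit3, chr19:34583348-34583441, plus strand: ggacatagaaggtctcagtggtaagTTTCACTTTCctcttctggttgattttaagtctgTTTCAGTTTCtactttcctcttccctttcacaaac
Oas1a, chr5:120907526-120907570, minus strand: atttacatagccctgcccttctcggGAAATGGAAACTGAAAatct
Rsad2, chr12:26456538-26456597, minus strand: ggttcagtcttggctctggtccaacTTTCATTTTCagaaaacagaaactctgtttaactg
Gbp2, chr3:142620579-142620638, plus strand: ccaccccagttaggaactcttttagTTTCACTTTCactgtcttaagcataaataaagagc
Gbp3, chr3:142559974-142560039, plus strand: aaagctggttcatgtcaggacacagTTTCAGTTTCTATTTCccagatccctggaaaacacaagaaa
Igtp, chr11:58199497-58199555, plus strand: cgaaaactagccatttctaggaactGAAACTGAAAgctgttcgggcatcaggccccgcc
Irgm1, chr11:48871421-48871475, minus strand: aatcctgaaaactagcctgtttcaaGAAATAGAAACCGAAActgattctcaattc
Irf1, chr11:53769899-53769957, plus strand: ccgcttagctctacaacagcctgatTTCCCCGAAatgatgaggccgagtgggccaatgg

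Ifit1, Ifit3, Oas1a, Gbp3 and Irgm1 each held 2 ISRE matches, which overlap in the last 3. Of the 33 members with a promoter window of 300 bases in the RefSeq table, 17 (51.5%) held an ISRE match in a window of theirs, against 3.99% of 27025 genes. The GAS letters were present in 11 (33.3%) against 9.55% of genes. Bst2, Eif2ak2, Igtp, Oas1a and Tgtp1 held both. The 10 members with neither were Ifi209, Ifi44, Ifi47, Irf7, Irf9, Lgals3bp, Oasl1, Oasl2, Sp100 and Xaf1. A match is a description of the letters in this window and not evidence of binding.

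On day 0, before regrowth, 3 members were higher in KO than in control livers. Usp18, the ISG15 protease and brake on type I signalling, lay between 4.35 and 6.11 in the 6 KO livers, with a median of 5.7, and between 2.34 and 2.37 in the 3 controls. The groups did not overlap, and the controls sat at the floor. The difference was 3.18 ± 0.75 (SE), with an adjusted p of 0.00992 (limma, Benjamini-Hochberg over 7320 genes, threshold 0.05), and it passed under every alternative run. Ifi27l2a, a small interferon-induced membrane protein, was 5.58 to 6.7 in KO, with a median of 6.25, and 3.64, 4.07 and 4.64 in control livers, a difference of 2.03 ± 0.58 (adjusted p = 0.0321, limma). Lgals3bp, a secreted glycoprotein that binds galectins, was 8.17 to 8.85 in KO and 6.64, 7.03 and 7.15 in control livers, a difference of 1.55 ± 0.42 (adjusted p = 0.0247, limma). Both genes were higher in all 6 KO livers than in any control.

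These 3 of 36 members stood against 9.66% of all genes called between the genotypes on day 0, 6.79% of all genes being higher in KO, so that the members' share was near the background. The median difference of the members was 0.35, against 0.02 over all genes tested, with 28 members above 0 and 8 below. The KO livers lay above the controls without overlap for 9 of 36 members, against 11.6% of genes. Oas1a differed by 0.60 ± 0.68, Rsad2 by 0.29 ± 1.0 and Gbp2 by 0.30 ± 0.58, and none of these 3 passed. Irf7 was 3.9 to 4.65 in KO and 2.98 to 3.63 in control livers, without overlap, but its difference of 1.02 ± 0.69 did not pass (adjusted p = 0.426, limma). Among the KO livers Ifit1 varied most of all members (SD 1.03, n = 6, from 2.55 to 5.66) and Mx1 least (SD 0.048, from 2.63 to 2.76, at the floor). The count fell to 1, that of Usp18, when any of the 3 control livers (263, 265 or 303) was left out. The SEs come from a spread shared by all 6 groups and not from day 0 alone. The members' median SD was 0.335 in KO and 0.224 in control livers on day 0, but 1.5 and 1.55 on day 6. A fit of the compared groups alone called more members on day 0, as given in the last section.

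On day 2 no member was called in any comparison. Between the genotypes on that day 0 of 36 members passed, with 5.71% of all genes called, and 3 members had an unadjusted p under 0.05 (smallest adjusted p = 0.0602, limma). From day 0 to day 2 in KO, 0 members and 0% of genes were called, 0 members had an unadjusted p under 0.05, and the members' median was -0.22. In control livers 0 members and 9.51% of all genes passed, 2 members had an unadjusted p under 0.05, and the median was 0. The SEs again come from the spread shared by all 6 groups. The members' median SD was 0.256 in KO and 0.422 in control livers on day 2, but 1.5 and 1.55 on day 6. A count of 0 here therefore does not show that the members changed less than other genes. The difference between these responses was called for 0 members and 0% of genes, and 0 had an unadjusted p under 0.05. Without control day 2 264 the genotype count on day 2 was 2, and without KO day 6 332, KO day 6 337 or control day 6 392 it was 1.

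**Figure D1:**
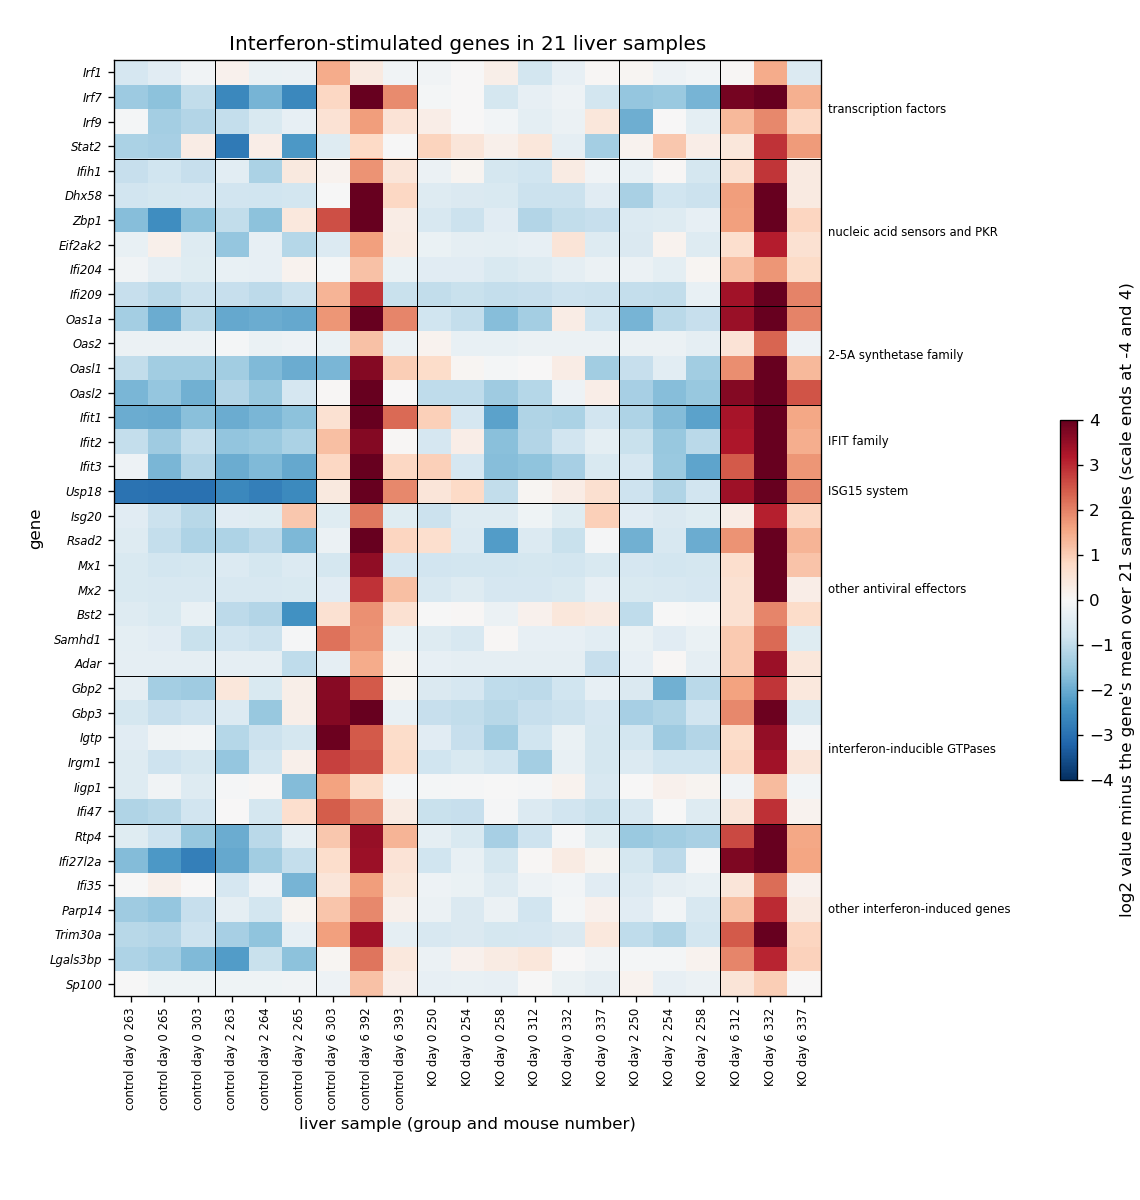
Log2 value of the 38 measured interferon-stimulated genes (rows, grouped by role) in 21 liver samples (columns, by group and mouse number), each centred on the gene's mean over the 21 samples; the colour scale ends at -4 and 4. The day 6 columns are the red ones in both genotypes, KO 332 and control 392 the most so, and control 303 is red mainly in the GTPase rows.

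By day 6, 8 of the 36 tested members had risen in KO and 13 in control livers. In KO livers 8 members were called higher than on day 0 and 0 lower, where only 10 genes (0.137%) were called among all 7320. The other genes were Fcgr1, a receptor for immunoglobulin G on myeloid cells (3.16 ± 0.54), and Fgl2, a fibrinogen-like protein (1.36 ± 0.22). In control livers 13 members were called higher and 0 lower, where 2.86% of all genes were called and 2.12% were higher. The median difference of the 36 members was 2.38 in KO and 2.35 in control livers, against -0.05 and 0 over all genes. In KO 31 of 36 members lay above day 0 without overlap, as did 1.67% of all genes, and in control livers 27 did, against 12.2% of genes.

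A total of 10 members passed the filter only through their day 6 values (Oas1a, Oasl2, Ifit1, Ifit2, Mx1, Mx2, Ifi204, Ifi209, Dhx58 and Adar). Over the other 26 the median was 2.01 in KO and 2.49 in control livers, with all 26 above 0 in both, and 3 and 11 called. Of these 26, 21 lay above day 0 without overlap in KO and 21 in control livers. Oas1a, Irf7, Rtp4 and Ifi27l2a were called in both genotypes, which is 4 of the 8 in KO and 4 of the 13 in control livers. Calls in one genotype and not the other are not a difference between them, and that difference is tested further on. The counts moved with single livers: in KO the count was 1 without KO day 6 332, 2 without KO day 6 312 and 21 without KO day 6 337, and it was 16 without control day 6 392, which enters only through the shared spread. In control livers it was 3 when either day 6 liver 392 or day 0 lobe 265 was left out, 6 without the day 0 lobe of 303, 8 without that of 263, 21 without day 6 liver 393 and 22 without KO day 6 332. A fit of only the groups compared called 4 in KO and 0 in control livers. The shares of all genes called in these settings are not given here, so the counts do not describe the members alone.

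The members are described by role from here, beginning with the transcription factors. Irf7, the factor that amplifies type I interferon production, rose from 3.9 to 4.65 on day 0 to 6.04, 8.45 and 10.16 in the KO day 6 livers. In control livers it rose from 2.98, 3.18 and 3.63 to 5.46, 6.52 and 9.18. Neither genotype overlapped with its day 0, and the differences were 3.93 ± 0.69 (adjusted p = 0.0169) and 3.79 ± 0.80 (adjusted p = 0.0134, limma). Irf9, the DNA-binding partner of the STAT dimer, was 6.83, 6.85 and 7.95 in control day 6 livers against 4.92 to 6.21 on day 0 and rose by 1.80 ± 0.45 (adjusted p = 0.0382, limma), and in KO it differed by 1.35 ± 0.39 (adjusted p = 0.322, limma). Stat2, with differences of 1.63 ± 0.64 in KO and 0.86 ± 0.74 in control livers, did not pass. Irf1, a factor strongly induced by type II interferon, differed by 0.48 ± 0.36 and 0.99 ± 0.42 and did not pass either. Its day 6 values of 7.07, 7.66 and 9.09 in KO and 7.47, 7.98 and 9.08 in control livers overlapped with day 0 in both genotypes.

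Among the oligoadenylate synthetases, Oas1a was at or under 4.93 in all 15 earlier samples and at 6.6, 8.08 and 10.26 in KO and 6.41, 6.57 and 9.61 in control livers on day 6. All day 6 livers were above all earlier ones. It rose by 4.57 ± 0.68 in KO (adjusted p = 0.00735) and by 4.39 ± 0.78 in control livers (adjusted p = 0.0058, limma), where its day 0 values of 2.65 to 3.51 were at the floor. It passed the filter only through day 6. Oasl2, a family member with a ubiquitin-like tail, was 6.6, 7.78 and 10.29 in KO day 6 livers against 2.66 to 4.36 on day 0 and rose by 4.88 ± 0.88 (adjusted p = 0.0208, limma). In control livers it was 4.12, 4.14 and 9.37, a difference of 3.54 ± 1.02 that did not pass (adjusted p = 0.0674, limma). Oasl1 was 8.69 in control 392 and 5.99 in control 393 but 3.18 in control 303, below all 3 control values of day 0. Oas2 left the floor in 1 liver only, KO 332 at 5.11, and the other 20 samples lay between 2.42 and 3.97.

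Among the IFIT genes, Ifit1 was 6.23, 7.98 and 12.16 in KO and 5.3, 6.95 and 10.81 in control livers on day 6, against 2.55 to 5.66 and 2.68 to 3.02 on day 0. The difference of 4.89 ± 1.22 passed in control livers (adjusted p = 0.0368) and the similar one of 4.94 ± 1.06 in KO did not (adjusted p = 0.0814, limma). Ifit2 was 5.98, 7.77 and 10.49 in KO day 6 livers against 2.86 to 4.8 and rose by 4.29 ± 0.74 (adjusted p = 0.0159, limma). Ifit3, at 13.26 in KO 332 and 11.3 in control 392, differed by 4.61 ± 1.01 and 3.34 ± 1.17 and did not pass.

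**Figure D2:**
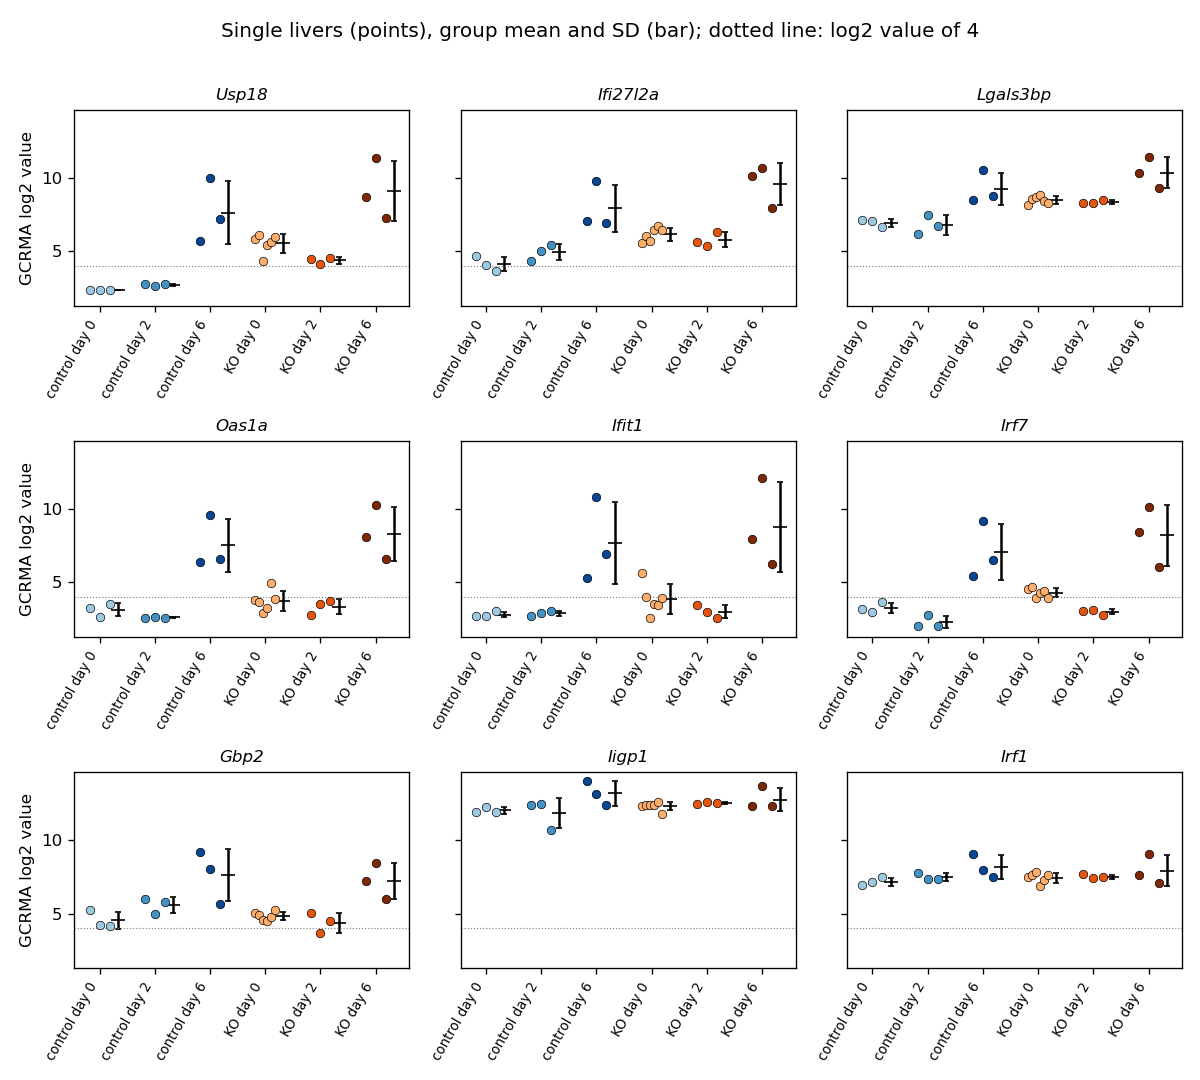
GCRMA log2 value (y axis) of 9 members in single livers (points) of the 6 groups (x axis), with the group mean and SD as a bar; the dotted line marks a log2 value of 4. Usp18 is at the floor in control livers of days 0 and 2 and between 4.11 and 6.11 in KO livers of those days, and the day 6 points spread more than those of any earlier group in most panels.

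Usp18 rose by 5.28 ± 0.86 in control livers, from a day 0 level at the floor (adjusted p = 0.00309, limma). Its values there were 5.71, 7.23 and 9.97 on day 6. In KO it was 7.26, 8.7 and 11.34, without overlap with day 0, and the difference of 3.56 ± 0.75 did not pass (adjusted p = 0.0783, limma).

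Among sensors, Zbp1, which binds Z-form nucleic acid, was 5.7, 7.97 and 9.55 in control livers against 2.91 to 3.75 and rose by 4.29 ± 0.85 (adjusted p = 0.0103, limma). Ifi209 and Ifi204, both of the DNA-sensing IFI200 family, were at the floor in all 9 day 0 livers. On day 6 Ifi209 reached 5.89, 7.25 and 8.5 in KO and rose by 4.22 ± 0.55 (adjusted p = 0.0032, limma), and this call held under every alternative run. In control livers it was 5.27, 6.74 and 3.02, and the last, in mouse 393, was no higher than on day 0. A second probe set of Ifi209 showed no change, with differences of -0.01 in both genotypes. Ifi204 rose in KO to 4.51, 4.99 and 5.51, by 1.69 ± 0.26 (adjusted p = 0.00735, limma). The RNA helicases Ifih1 and Dhx58 and the RNA-activated kinase Eif2ak2 differed by 1.53 to 2.80 in KO and by 0.68 to 2.33 in control livers and did not pass. On the probe set used, Dhx58 was nonetheless above all 15 earlier samples in all 6 day 6 livers, its lowest value being 4.04. Another Dhx58 probe set stayed at the floor on day 6 in KO 312 (2.57), control 303 (2.59) and control 393 (2.63). The remaining Dhx58 probe set differed by -0.01 in KO and 0.00 in control livers.

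Of 7 other antiviral effectors (Isg20, Rsad2, Mx1, Mx2, Bst2, Samhd1 and Adar) 0 were called in either genotype, although 5 in KO and 4 in control livers lay above day 0 without overlap. Rsad2, the viperin gene, was 7.18, 7.62 and 12.36 in KO and 5.57, 6.66 and 10.43 in control day 6 livers, and its differences were 3.85 ± 1.0 and 2.64 ± 1.15. Mx1, a GTPase that traps viral nucleocapsids, was at the floor in all 15 earlier samples (2.63 to 2.85). On day 6 it was 4.05, 4.53 and 9.61 in KO and 6.92 in control 392, and stayed at 2.68 and 2.7 in controls 303 and 393. Of 4 Samhd1 probe sets, 2 showed differences of 0.41 or less in both genotypes.

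The interferon-inducible GTPases, which act on microbe-holding vacuoles, had another order among livers. Of 6 measured (Gbp2, Gbp3, Igtp, Irgm1, Iigp1 and Ifi47), 3 were called in control and 0 in KO livers. The shares of all genes called were 2.86% in control and 0.137% in KO livers, so these counts do not compare the genotypes. Gbp2 was 5.68, 8.02 and 9.23 in control livers against 4.15 to 5.23 and rose by 3.11 ± 0.68 (adjusted p = 0.0162). Irgm1 rose by 2.71 ± 0.60 (adjusted p = 0.0174) and Ifi47 by 2.60 ± 0.58 (adjusted p = 0.0187, limma). In KO Gbp2 was 6.01, 7.2 and 8.44 against 4.52 to 5.26, a difference of 2.38 ± 0.58 (adjusted p = 0.15, limma). Irgm1 differed in KO by 2.31 ± 0.52 (adjusted p = 0.0827, limma). Iigp1 was at 11.83 to 12.61 on day 0, and differed by 0.45 ± 0.39 in KO and 1.16 ± 0.45 in control livers.

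In the remaining role, that of other interferon-induced genes, Rtp4 and Ifi27l2a were called in both genotypes. Rtp4, a chaperone of membrane receptors, was 8.78, 9.87 and 11.27 in KO and 8.32, 8.6 and 10.7 in control livers, above the 5.26 to 7.17 of all earlier samples. It rose by 3.36 ± 0.51 (adjusted p = 0.00735) and 2.93 ± 0.59 (adjusted p = 0.011, limma). A second Rtp4 probe set differed by 1.40 in KO and 0.76 in control livers. Its day 6 values of 3.68 in KO 337 and 3.82 in control 393 lay under 3.98 in control day 2 265. Ifi27l2a rose by 3.42 ± 0.58 (adjusted p = 0.0144) and 3.81 ± 0.67 (adjusted p = 0.0052, limma). Parp14, an ADP-ribosyltransferase, rose in control livers by 2.38 ± 0.49 (adjusted p = 0.0129) and Lgals3bp by 2.32 ± 0.49 (adjusted p = 0.013, limma). Ifi35 and Trim30a did not pass, and Sp100 stayed between 2.67 and 4.21 throughout.

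Counted without a test, 10 members had all 6 day 6 livers above all 15 earlier samples, as had 16 of all 7320 genes (0.219%). They were Oas1a, Irf7, Irf9, Rtp4, Ifi27l2a, Dhx58, Bst2, Parp14, Igtp and Irgm1. This count was made after the values had been seen, on the probe set that stood for each gene. Other probe sets of Dhx58 and Rtp4 did not show it, and Oas1a and Dhx58 passed the filter only through day 6. For every one of the 38 measured members the highest group mean was on day 6, in KO for 30 and in control livers for 8 (Irf1, Ifi47, Gbp2, Gbp3, Igtp, Irgm1, Iigp1 and Samhd1). The 19 members called in no comparison were Oasl1, Ifit3, Irf1, Stat2, Isg20, Rsad2, Mx1, Mx2, Ifi35, Ifih1, Dhx58, Eif2ak2, Bst2, Trim30a, Gbp3, Igtp, Iigp1, Samhd1 and Adar. Their differences on day 6 ran from 0.45 to 4.61 in KO and from 0.68 to 3.43 in control livers.

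**Figure D3:**
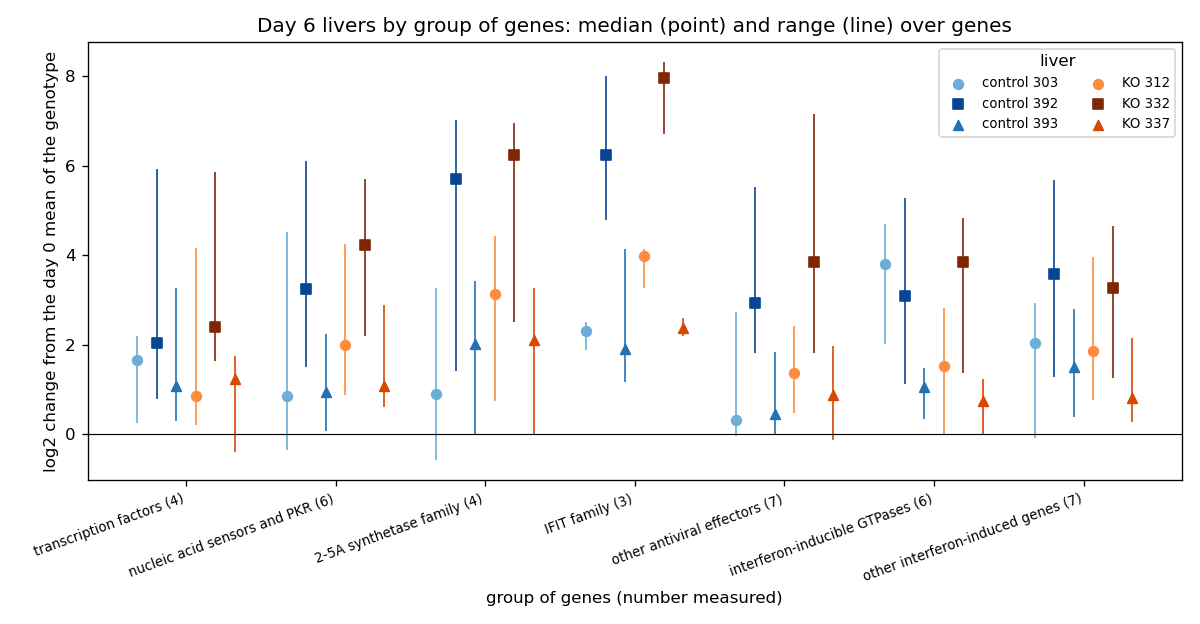
Log2 change of each day 6 liver from the day 0 mean of its genotype (y axis), by role (x axis); points are medians and lines ranges over the genes of a role, in 3 control (blue) and 3 KO (orange) livers. KO 332 and control 392 are highest in most roles, and control 303 has a GTPase median of 3.81 beside a median of 0.32 for other antiviral effectors.

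The size of the rise differed among livers of the same genotype. The median SD of the 38 members was 1.5 in KO and 1.55 in control livers on day 6, against 0.224 to 0.422 in the other 4 groups, while that of all genes tested was 0.231 and 0.3 on day 6. The median change from the day 0 mean of the genotype was 4.2 in KO 332 and 3.51 in control 392, and lower in the other livers, at 1.89 in control 303, 1.62 in KO 312, 1.26 in control 393 and 1.14 in KO 337. KO 332 was the highest of the 6 livers for 33 of 38 members. Each genotype thus held 1 liver with a large rise and 2 with smaller ones, and the ranges of the genotypes overlapped.

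Control 303 had the highest value of the 6 livers for Gbp2 (9.23), Igtp (13.43) and Iigp1 (14.07), and its GTPase median change was 3.81, close to the 3.86 of KO 332. Its median change was 0.90 for the oligoadenylate synthetase family and 0.32 for the 7 other antiviral effectors, where KO 332 had 6.25 and 3.86 and control 392 had 5.7 and 2.93. The other roles of control 303 lay in between: 2.3 for the IFIT genes, 2.05 for other interferon-induced genes, 1.67 for transcription factors and 0.86 for sensors. Usp18 was at 3.36. Outside the GTPases, Zbp1 and Samhd1 rose there by 4.22 and 3.04 from the day 0 lobe of the same mouse. In control 393 the synthetases, at 2.01, were above the GTPases, at 1.06, and the other antiviral effectors were lower still, at 0.45. The Irf1 value of control 303 was 9.08 and that of KO 332 was 9.09, and the other 4 day 6 livers lay between 7.07 and 7.98. This is a description of single livers, with no test.

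Livers were also compared with the day 0 lobe of the same mouse. From day 0 to day 6, 36 of 38 members were higher in KO 312 (median 1.8), 38 in KO 332 (median 3.79), 35 in KO 337 (median 1.03) and 31 in control 303 (median 1.9). The median over all genes tested lay between -0.14 and 0.02 in these mice. Of the 38 members, 27 were higher in all 4 mice. The exceptions were Adar, Eif2ak2, Iigp1, Irf1, Isg20, Mx1, Oas2, Oasl1, Samhd1, Sp100 and Stat2. From day 0 to day 2 the median change in 5 mice lay between -0.25 and 0.19. In KO 250 Rsad2 changed by -2.6, the lowest value in these mice. The largest rise was 2.91 in control 265, in Zbp1, on the array with the Gapdh difference of 9.5.

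**Figure D4:**
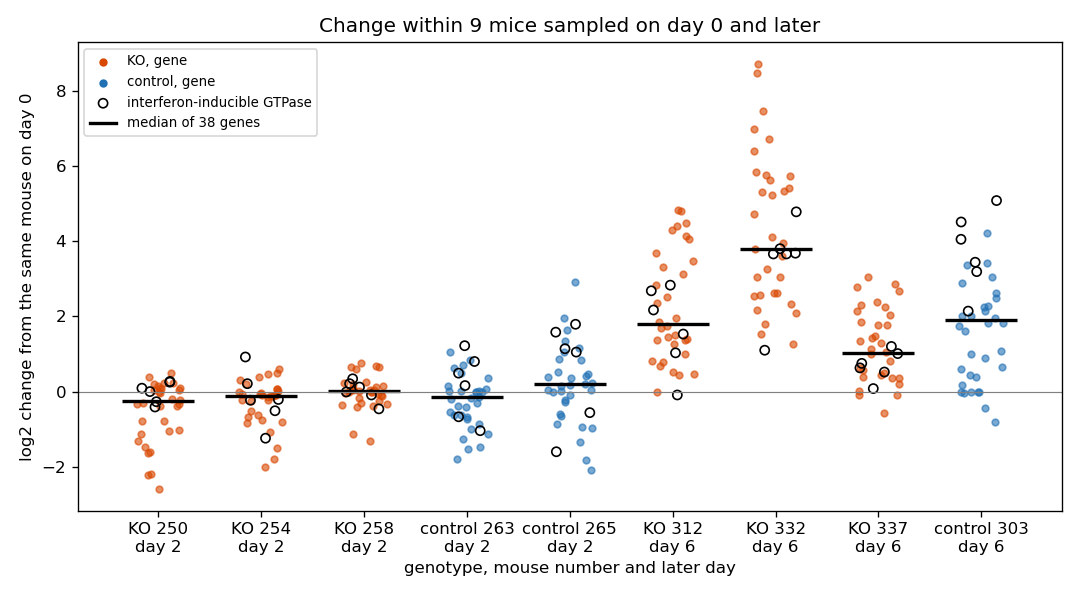
Log2 change of 38 members (points) from the day 0 sample of the same mouse (y axis) in 9 mice (x axis), in KO (orange) and control (blue); open circles are the GTPases and the bar is the median. The medians are between -0.25 and 0.19 on day 2 and between 1.03 and 3.79 on day 6. Most open circles sit near the top of the points in control 303, with Iigp1 lower at 2.14.

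The genotypes did not differ by the test on day 6. Of 36 members 0 were called between KO and control livers, where 1.73% of all genes were, and 8 had an unadjusted p under 0.05 (smallest adjusted p = 0.103, Ifi209, limma). The difference was above 0 for 28 members and the median was 0.85, with SEs from 0.30 to 1.22. Over the 26 members that pass the filter without the day 6 samples, the median was 0.46 and 18 were above 0. Without KO day 6 332 the median of the 36 was -0.16, with 17 above 0, and it was 1.40 without KO 337, 0.37 without control 303, 0.53 without control 393 and 1.66 without control 392. Without control day 6 392 the count was 4, and without KO day 6 337 it was 1. The largest differences were those of Oasl2 (2.35 ± 1.02), Ifi209 (2.20 ± 0.64) and Oasl1 (2.08 ± 1.07). Below 0 were Irf1, Samhd1 and the 6 GTPases, from -0.97 ± 0.71 for Igtp to -0.39 ± 0.58 for Ifi47. The GTPases were below 0 also after median centring and quantile normalization, but without control 303 only 3 were, without KO 337 only 2 and without control 392 only 5.

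The difference between the day 6 responses, KO minus control, was called for 0 members and 0.164% of genes, and 2 members had an unadjusted p under 0.05 (smallest adjusted p = 0.62, limma). It ran from -1.72 ± 1.14 for Usp18 to 2.15 ± 0.84 for Ifi209, with a median of 0.16 and SEs from 0.40 to 1.62. Over the 26 members that pass the filter without the day 6 samples, the median was -0.42 and 10 were above 0. Leaving out 1 day 6 liver changed the median of the 36 to -0.81 for KO 332, 0.33 for KO 312, 0.81 for KO 337, -0.31 for control 393, -0.05 for control 303 and 1.15 for control 392. For members with the larger of these errors, a difference of a few fold between the genotypes could go uncalled with 3 livers each on day 6. The size that could be detected was not worked out. For Ifit1 the difference of responses was 0.05 ± 1.62, for Irf7 0.14 ± 1.06 and for Oas1a 0.18 ± 1.04, each with an error many times its size. Across the 38 measured members, the differences of day 6 from day 0 in KO and in control livers had a Pearson's r of 0.76 and a Spearman's rho of 0.79, given as a description with no test. The points share their day 0 and day 6 arrays, and many of them have a day 0 level near the floor in both genotypes.

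**Figure D5:**
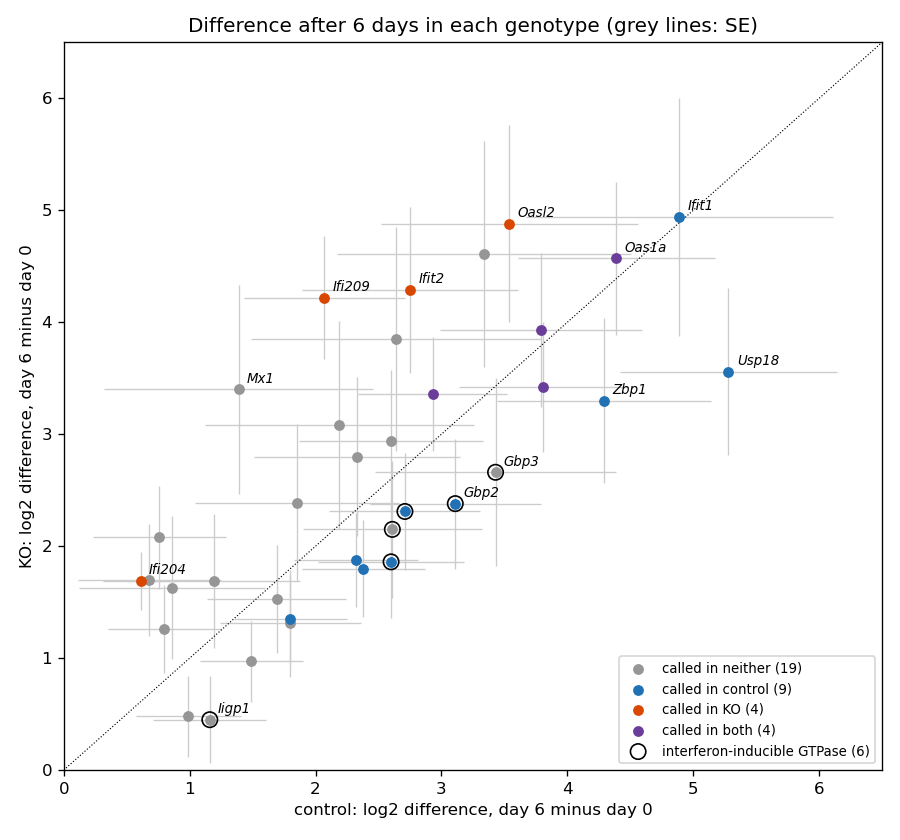
Log2 difference of day 6 from day 0 in control (x axis) and KO (y axis) livers for 36 tested members, with SEs as grey lines; colour gives the genotype in which a member was called, open circles are the GTPases and the dotted line marks equal differences. All members lie above 0 on both axes, and the 6 GTPases lie below the line.

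The rest of the pathway was taken from lists, which were also chosen with earlier results of these data known. Of 10 interferon genes with a probe set, Ifna2 alone passed the filter, between 4.17 and 4.82 on all arrays, with a difference of -0.02 in KO and -0.22 in control livers on day 6. Ifnb1 was at or under 2.36 and Ifng at or under 2.53 on all 21 arrays, day 6 livers included. Among 5 receptor genes, Ifngr1, a chain of the type II receptor, was 6.04 to 6.84 in KO and 5.16 to 5.46 in control livers on day 0 and higher in KO by 1.04 ± 0.24 (adjusted p = 0.0094, limma). Il10rb, a chain shared by the type III and interleukin-10 receptors, was higher by 1.46 ± 0.44 (adjusted p = 0.0444, limma). Neither overlapped with the controls, and 0 of the 5 receptor genes were called on days 2 and 6 or over time. The share of all genes called between the genotypes on day 0 was 9.66%.

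Of 7 genes for JAK-STAT signalling and its inhibitors, 2 were called, both in control livers on day 2, where 9.51% of all genes were called. Socs3, an inhibitor induced by interleukin-6 and related cytokines, rose by 2.86 ± 0.79 (adjusted p = 0.0322) and the phosphatase Ptpn2 by 0.80 ± 0.23 (adjusted p = 0.0369, limma). Among 4 other IRF factors and 5 genes of sensing adaptors and kinases, 0 were called in any comparison. Of 21 further interferon-stimulated genes tested, 20 were above 0 in KO (median 1.38) and 21 in control livers (median 1.18) on day 6. The 4 called in control livers were Gbp6 (3.62 ± 0.76, adjusted p = 0.013), Irgm2 (2.10 ± 0.51, adjusted p = 0.0333), Parp12 (2.01 ± 0.47, adjusted p = 0.0257) and Ifitm3 (1.03 ± 0.24, adjusted p = 0.0216, limma), and 0 were called in KO. The shares of all genes called on day 6 were 2.86% in control and 0.137% in KO livers. On day 2 Ifitm1 was called in control livers (1.81 ± 0.51, adjusted p = 0.0334, limma). Gbp6, a guanylate-binding protein, was 8.24, 9.7 and 10.5 in control and 7.35, 8.05 and 11.26 in KO day 6 livers.

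Values of immune cell markers are given here beside the members, and their part in the day 6 differences was not tested. The mean of 6 leukocyte markers (Ptprc, Laptm5, Coro1a, Cd53, Cd52 and Cd48), centred per gene, ranged from -0.06 to 0.72 in KO and from -1.43 to -0.62 in control livers on day 0. On day 6 it was 1.63 in KO 312, 1.35 in KO 332, 0.215 in KO 337, 1.71 in control 303, 0.61 in control 392 and -1.47 in control 393. Of 6 leukocyte markers 0 were called on day 6 in either genotype. Of 7 neutrophil markers measured, 3 were tested and 0 were called on day 6, with medians of 2.51 in KO and 2.99 in control livers. S100a8 and S100a9, which form the calcium-binding protein calprotectin, did not overlap with day 0 in either genotype and differed by 2.63 ± 0.87 and 2.51 ± 0.90 in KO and by 2.99 ± 1.0 and 3.73 ± 1.04 in control livers. The remaining tested marker, Csf3r, differed by only 0.13 in KO and 0.33 in control livers. Cxcr2, Mpo and Camp were at or under 4 on all arrays. The neutrophil markers' centred mean ranged from -0.8 to 0.06 in KO and from -0.89 to -0.39 in control livers on day 0, and from 0.18 to 0.8 and from -0.17 to 0.77 on day 6.

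Of 12 T and NK cell markers measured, 9 were at or under 4 on all arrays, among them Cd3e, Cd8a, Nkg7 and Prf1. Gzmb, a cytotoxic granule protease, was at 2.12 to 2.47 on the other arrays and at 5.09, 5.92 and 4.42 in KO 312, KO 332 and control 392. Gzma, another such protease, had another order on day 6. It was 5.35 in KO 312 and 3.86 in control 303, but 2.34 in KO 332 and 2.76 in control 392. Of 4 markers of plasmacytoid dendritic cells, the cells that make most type I interferon, Ccr9 and Pacsin1 were at or under 4 on all arrays. The other two, Tcf4 and Bst2 (the latter also a member), differed on day 6 by 0.40 ± 0.33 and 0.97 ± 0.36 in KO and by 0.18 ± 0.38 and 1.49 ± 0.41 in control livers, and neither was called. Marco, a scavenger receptor of macrophages, rose in control livers to 6.56, 8.03 and 10.83 (5.78 ± 1.32, adjusted p = 0.0208, limma), the highest being control 303, and was at or under 3.79 in all 12 KO samples. Marco was also 9.67 in control day 2 265. Cd163, another macrophage marker, was 2.46 to 2.69 in KO and 5.34 to 7.87 in control samples over all days. Between the genotypes on day 6, 2 of 9 macrophage markers were called lower in KO, where 1.73% of all genes were called. Of the 9, 4 were above 0 and 5 below. Their mean ranged from -0.45 to 2.46 in control and from -0.79 to 0.94 in KO livers on day 6. On day 0 it ranged from -0.82 to -0.06 in control and from -0.48 to -0.04 in KO livers.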

How the data were processed

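Total liver RNA was labelled with biotin by a 3' protocol and hybridised to 1 array per sample, per the labels' protocols. The deposited values are log2 intensities made by the authors with GCRMA (version not given), per the submitters' processing notes, and were kept as normalized. No source used here names the genome build of the annotation. The number of livers limits the precision, as arrays count no molecules.

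The table held 22690 probe sets. Those with 1 symbol in the platform annotation were used (20380), and 20351 were matched by Entrez ID to a RefSeq table (GRCm38.p6), which changed 0 symbols. The filter kept genes above a log2 value of 4 on at least 3 arrays. Comparisons were contrasts of 1 limma 3.58.1 fit (lmFit, then eBayes, in R 4.3.3) that held the 6 groups and left 15 residual degrees of freedom, with two-sided p-values adjusted by Benjamini-Hochberg over all 7320 genes and a threshold of 0.05. The model was tested on simulated data with independent noise and 1 SD per gene in all 6 groups. That setting lacks the members' wider spread on day 6, so the simulation does not cover it. A called member is 1 past that threshold. Figures used matplotlib 3.10.9.

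The members and lists were chosen with earlier results of these data known. Named one by one were 12 core members where measured, members called in a comparison, those called in none, those of largest and smallest spread on day 0, up to 4 called genes of each pathway list between genotypes, and other genes of those lists and markers, picked with their values in view.

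The labels give the samples of a mouse 1 number and state that day 0 lobes came from the mice sampled later. Once group means were subtracted, the 9 pairs of samples from 1 mouse correlated at -0.0568 to 0.303 (median 0.119). A random block for the mouse (correlation 0.108) was 1 alternative. Other alternatives were no filter, a filter at 6, averaging all probe sets of a gene, quantile normalization, median centring, eBayes with trend and robust, array weights, only the groups compared, leaving out each array and, added after seeing the data, leaving out the 3 arrays with a Gapdh difference above 1.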

Additional observations from a re-analysis of the deposited data

Results flagged for a closer look

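In the 6 KO livers of day 0, the only group large enough to look for a single distant value, 5 of 36 members had 1 liver far from the others (its gap to the nearest liver, as a share of the group's range, was above Dixon's critical value). Chance gives about 1 in 20 such groups. In KO 337 Trim30a was 6.05, with the next liver at 5.04, Adar was 2.76 with the next at 3.3, and Iigp1 was 11.83 with the next at 12.38. Mx1 was 2.76 in the same liver, with the next at 2.67, all at the floor of the scale. In KO 332 Eif2ak2 was 4.89, with the next liver at 4.13. KO day 0 337 is the array with a Gapdh 3' to 5' difference of 2.03, and whether that plays a part was not tested.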

How the results depend on the processing

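In all, 74 results were recomputed under up to 31 alternatives each. Of 24 called differences of single members, all 24 stayed above 0 under every alternative run, but only 2 stayed called throughout, Usp18 between genotypes on day 0 and Ifi209 over time in KO. When the fit held the compared groups alone 17 were lost, as were 12 without the day 0 lobe of control 265, 10 without day 6 liver 392 and 7 without KO 332. The 3 members called on day 0 became 1 with no filter and 7 with the compared groups alone. The 8 called in KO on day 6 became 4 with no filter, 13 with array weights, 4 with the compared groups alone and 4 without the 3 arrays with a Gapdh difference above 1. The 13 in control livers became 22 with array weights and 0 with the compared groups alone. Leaving out 1 array gave 1 to 3 on day 0, 0 to 2 between genotypes on day 2, 0 to 4 between genotypes on day 6, 1 to 21 over time in KO and 3 to 22 in control livers. The share of all genes called in each setting is not given beside these counts. They therefore do not tell whether the members moved apart from other genes. With the mouse as a replicate block the counts were 3, 0 and 0 between genotypes on days 0, 2 and 6, 8 over time in KO and 14 in control livers by day 6, and 0 for the other comparisons, so the pairing moved 1 count by 1. Uncalled differences of named members turned sign as follows. Between genotypes, Mx1 on day 0 was 0 after quantile normalization, and on day 6 Ifit1 was 0 with array weights. In the difference of day 6 responses, Ifit1 was 0 after quantile normalization and -1.31 with array weights, Irf7 was -0.82 and Oas1a was -0.48 with array weights. Leaving out 1 array, the differences between genotypes on day 6 ran from -0.81 to 0.22 (Irf1), -0.58 to 2.67 (Ifit1), -1.41 to 0.37 (Gbp2), -0.19 to 1.82 (Oas1a) and -0.88 to 0 (Iigp1). Over time they ran from -0.09 to 0.92 (Irf1) and -0.01 to 0.68 (Iigp1) in KO and from -0.02 to 2.1 (Mx1) in control livers. The day 6 responses ran from -0.83 to 1.23 (Irf7), -1.64 to 1.61 (Ifit1), -0.79 to 1.22 (Oas1a) and -1.71 to 0.06 (Gbp2). The cause was not tested. Groups of 3 livers and a floor near 4 limit what could be detected.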
